A study of Mus musculus with 15 samples.

Results

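Basement membrane collagens were examined as a family of 8 genes: Col4a1, Col4a2, Col4a3, Col4a4, Col4a5 and Col4a6, which encode the 6 chains of type IV collagen, and Col15a1 and Col18a1, which encode the multiplexin collagens XV and XVIII. The members were taken by gene symbol, each is represented by 1 probe set, and all 8 have a value, among 13513 named genes with one. RNA was measured on 15 Affymetrix arrays in 3 groups of 5. All mice were wild-type C57BL/6 aged 8 to 12 weeks, and all hearts were perfused with collagenase. The CF arrays hold fibroblasts from hearts without stress. The aCF arrays hold activated fibroblasts, collected on day 5 of a myocardial infarct. The EpiSC arrays hold stromal cells of the epicardium, the outer layer of the heart, also from day 5 of an infarct. EpiSC were shaken off the heart surface by mild shear, whereas CF and aCF were dissociated from the ventricles and cleared of heart muscle cells with strainers and slow centrifugation. EpiSC thus differ from both other groups in isolation as well as in cell type, and no sham-operated group is named. The design text compares EpiSC with aCF and aCF with CF; EpiSC against CF was added as a secondary comparison, and every group enters 2 of the 3.

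Type IV collagen is the network-forming collagen of every basement membrane. Its chains assemble into 3 kinds of triple helix: the ubiquitous one of alpha1 and alpha2 chains, one of alpha3, alpha4 and alpha5 chains known from kidney, lung and inner ear, and one of alpha5 and alpha6 chains. Collagens XV and XVIII carry sugar chains, sit at the border between basement membrane and interstitium, and release the anti-angiogenic fragments restin and endostatin. In the heart, basement membranes surround muscle cells, capillaries and mural cells and underlie the epicardial mesothelium, while fibroblasts contribute collagen chains to them.

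The values are log2 expression, from which the authors subtracted the median of each probe set. A value of 0 therefore means the middle of the 15 arrays and not absence, levels cannot be compared between genes, and whether a gene lies above background cannot be judged. Gene names rest on an inferred displacement between the identifiers and the value rows of the deposited table, described under the processing, which no source states. For 5 pairs of collagen genes known to assemble or to lie together, the correlation of deviations from group means averaged 0.646 at that displacement and 0.0836 as deposited. At 9252 other displacements it reached at most 0.495. Single pairs are less distinct: the highest of 10 nearby displacements gave Col4a3 and Col4a4 0.681 against 0.613 at the one used, and Col4a5 and Col4a6 0.358 against 0.343. The labels fitted the named markers in part: 7 of 9 mesothelial and epicardial markers had a value, and 3 of them were higher in EpiSC than in aCF, among them Dmkn (log2 difference 3.64 ± 0.32, SE) and Bnc1 (2.36 ± 0.22). Dmkn was also higher in aCF than in CF (2.41 ± 0.35, Benjamini-Hochberg adjusted p = 0.000933, limma). In EpiSC against aCF the list ran from -0.018 to 3.64. Tbx18 (0.10) and Aldh1a2 (-0.02), named after their values were seen, did not pass Benjamini-Hochberg there (adjusted p = 0.757 and 0.958, limma). In limma 0 of 7 passed once aCF4 and aCF5 were left out (5 by unadjusted p with all arrays), with the list's median at 2.42 beside 2.36. Arrays aCF4 and aCF5 stood apart from the other aCF arrays, with mean heart muscle marker values of -0.767 and -0.723 against 0.0571 to 0.303, and results that rest on them are given with and without them.

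**Figure D1:**
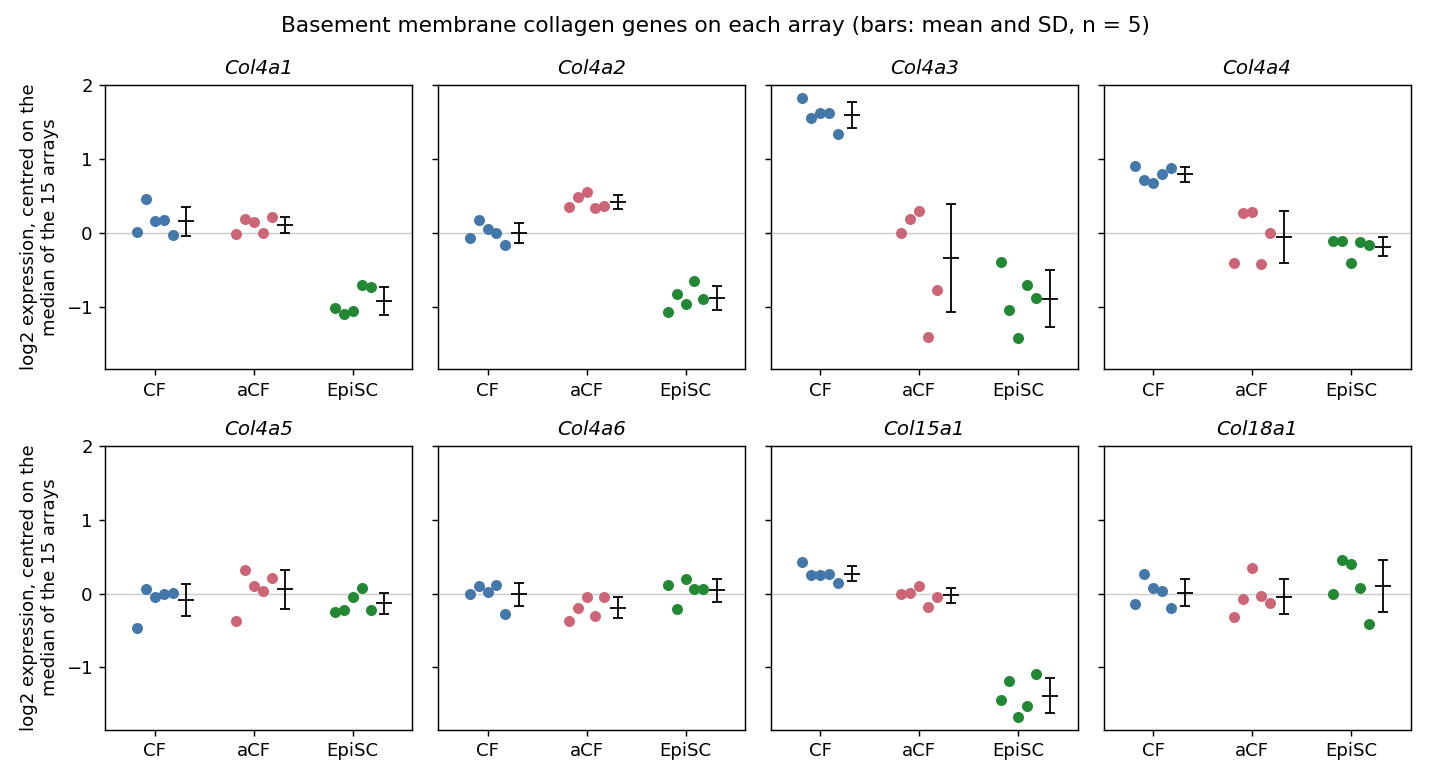
Centred log2 expression of the 8 basement membrane collagen genes on each array (y axis) by group (x axis). Points are arrays, and bars give the mean and SD of 5 arrays; the EpiSC arrays lie below all others for Col4a1, Col4a2 and Col15a1, and the CF arrays lie above all others for Col4a3 and Col4a4.

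The family split into 3 patterns over the groups. Col4a1, Col4a2 and Col15a1 were low in EpiSC alone, Col4a3 and Col4a4 were high in CF alone, and the groups overlapped for Col4a5, Col4a6 and Col18a1. With limma and Bonferroni adjustment over all 22206 rows, 3 of 8 members were lower in EpiSC than in aCF (background over all rows 0.666%), 0 of 8 passed between aCF and CF (background 1.53%), and 5 of 8 were lower in EpiSC than in CF (background 2.91%). With the milder Benjamini-Hochberg adjustment in limma the members past the threshold of 0.05 were 3, 4 and 5 (backgrounds 9.61%, 18.1% and 32.2%). The 0 of the second comparison stood at 4 by unadjusted p, beside 6917 of all 22206 rows. In EpiSC against aCF 5317 rows passed by unadjusted p, the background of the unadjusted counts given for that comparison. The groups did not overlap for 3, 4 and 5 members, against 9.91%, 14.7% and 23.4% of all rows. In bulk samples such as these, fewer cells of a type and less RNA per cell cannot be told apart.

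**Figure D2:**
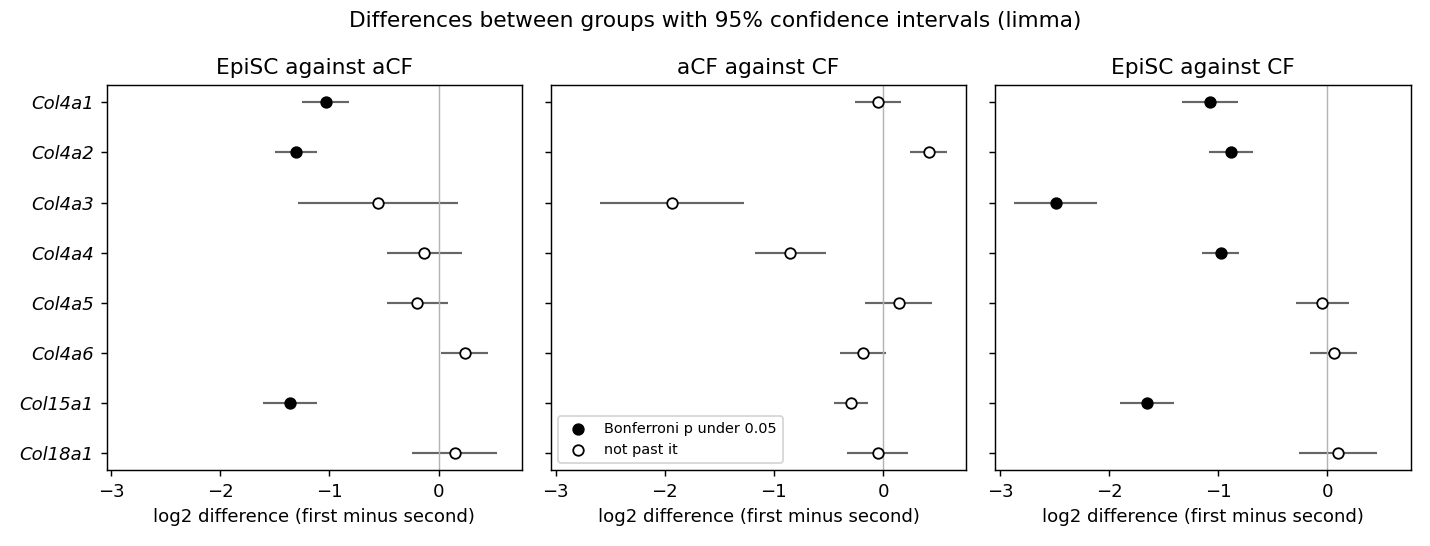
Log2 difference between groups (x axis) of each member (y axis) in the 3 comparisons, first group minus second, with 95% confidence intervals from limma. Filled points passed the Bonferroni threshold: 3 members in EpiSC against aCF, 0 in aCF against CF and 5 in EpiSC against CF.

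Col4a1 and Col4a2 encode the chains of the ubiquitous type IV helix, which contains both. The genes lie head to head on chromosome 8 on opposite strands. In RefSeq's GRCm38.p6 their first bases overlap, so that the transcripts share 22 bases, shown here because the data below bear on genes that start at the same place. The stretch is chr8:11312801-11312830, read on the plus strand, the strand of Col4a2, and the capitals mark the bases shared by both starts.
Col4a1 and Col4a2 start: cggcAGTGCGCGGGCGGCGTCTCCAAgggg

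Motifs were searched on both strands in the window from 250 bases before to 50 bases after each start. The shared stretch holds GGGCGG, the core of a GC box, which is found in 35.7% of 32851 such windows over the genome. CCAAT occurs once in the Col4a1 window and once in the Col4a2 window, as in 37.4% of all windows. Neither TATAAA (13.6% of all windows) nor the AP-1 motif TGANTCA (7.81%) was matched in either window. Apart from the site counted in both windows, none of these matches overlapped another, and a match describes letters only.

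Col4a1 stood at 0.01, 0.46, 0.16, 0.17 and -0.03 in CF1 to CF5. In aCF1 to aCF5 it was -0.01, 0.19, 0.15, 0.0 and 0.22. In EpiSC1 to EpiSC5 it was -1.02, -1.10, -1.06, -0.71 and -0.73. All 5 EpiSC arrays thus lay below all 10 fibroblast arrays, while the aCF values lay within the wider range of CF. Col4a1 was 2.05-fold lower in EpiSC than in aCF (log2 difference -1.03 ± 0.10, SE, n = 5 arrays per group, limma with Bonferroni adjustment, adjusted p = 0.0165). This call was kept in 2 of 10 omissions of an array, without EpiSC4 or without EpiSC5, with adjusted p up to 0.107 otherwise. It was also lost after quantile normalization (adjusted p = 0.0641), in a trended and robust fit (adjusted p = 1) and without both aCF4 and aCF5 (adjusted p = 0.459), with a log2 difference between -0.84 and -1.03. The replicate number as a block in the fit ended the call too (adjusted p = 0.797, limma with Bonferroni adjustment). Between aCF and CF the difference was -0.04, with a 95% interval from -0.26 to 0.17.

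Col4a2 was -0.07, 0.18, 0.05, 0.0 and -0.17 in CF1 to CF5. It was 0.35, 0.49, 0.55, 0.34 and 0.36 in aCF1 to aCF5, and -1.08, -0.83, -0.97, -0.65 and -0.90 in EpiSC1 to EpiSC5. The 3 groups did not overlap, with aCF highest, CF between and EpiSC lowest. Col4a2 was 2.47-fold lower in EpiSC than in aCF (log2 difference -1.30 ± 0.09, adjusted p = 0.0006), the 22nd smallest p of the 22206 rows. The call held in all 10 omissions of an array and without both aCF4 and aCF5 (adjusted p = 0.0275). It was lost with the replicate number as a block in the fit (adjusted p = 0.122, limma with Bonferroni adjustment). Between aCF and CF the difference was 0.42 ± 0.08, which missed the Bonferroni threshold (adjusted p = 1) and passed Benjamini-Hochberg (adjusted p = 0.00354, limma).

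Against CF, EpiSC were lower, with log2 differences of -1.08 ± 0.11 for Col4a1 (adjusted p = 0.0498) and -0.88 ± 0.09 for Col4a2 (adjusted p = 0.0428, both limma with Bonferroni adjustment). Both calls lay at the threshold. That of Col4a1 was lost in all 10 omissions of an array (adjusted p 0.0776 to 0.291), and that of Col4a2 was kept only without EpiSC4 (up to 0.262 otherwise). Quantile normalization ended both (adjusted p = 0.119 and 0.735), as did the trended and robust fit (0.365 and 0.954). The replicate number as a block in the fit ended both too. The direction was the same in each of these settings.

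The partners of the ubiquitous helix did not move in step between resting and activated fibroblasts. Taking Col4a2 minus Col4a1 on each array cancels whatever scales both alike. This difference of centred values was -0.08, -0.28, -0.11, -0.17 and -0.14 in CF1 to CF5, and 0.36, 0.30, 0.40, 0.34 and 0.14 in aCF1 to aCF5. It was -0.06, 0.27, 0.09, 0.06 and -0.17 in EpiSC1 to EpiSC5. All aCF arrays thus lay above all CF arrays, and EpiSC overlapped both. The ratio of Col4a2 to Col4a1 was 1.38-fold higher in aCF than in CF (0.46 on the log2 scale, exact permutation test, 2-sided, p = 0.00794, the smallest that 5 against 5 arrays can give; adjusted p = 0.0170 over 15 comparisons of member pairs by Benjamini-Hochberg). It held in all 10 omissions of an array (adjusted p up to 0.0340, exact test). Groups that do not overlap stay so when an array is left out, so these omissions could not have ended the call. Without aCF4 and aCF5 the difference was 0.51, and 3 against 5 arrays cannot go below p = 0.0357 in the exact test. EpiSC were 0.27 below aCF in this ratio (exact permutation test adjusted p = 0.0265), a call kept in 3 of 10 omissions, without aCF5, EpiSC2 or EpiSC5. EpiSC and CF differed by 0.19 (exact test, adjusted p = 0.0758), past the threshold after quantile normalization (0.17, adjusted p = 0.0476) and without EpiSC5 (0.25, adjusted p = 0.0298).

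**Figure D3:**
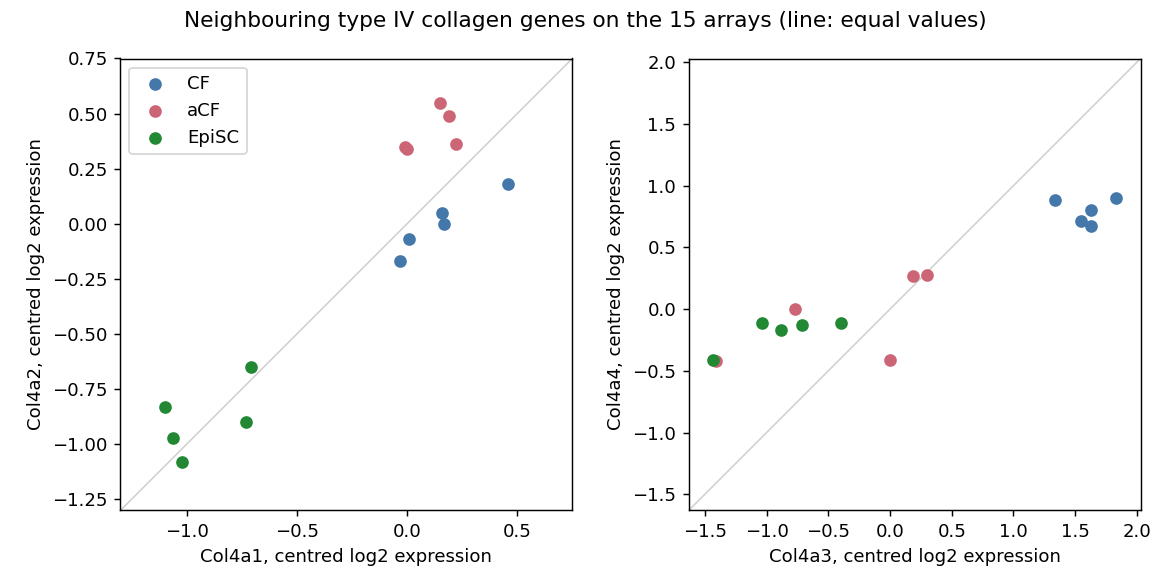
Centred log2 expression of Col4a2 against Col4a1 and of Col4a4 against Col4a3, with 1 point per array and colours for the groups; the line marks equal centred values, which does not mean equal levels. The 5 aCF arrays lie above the line and the 5 CF arrays below it for Col4a1 and Col4a2, and the CF arrays stand apart at the right for Col4a3 and Col4a4.

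Col4a3 and Col4a4, which are next to each other on chromosome 1, encode chains of the helix best known from the kidney filter. Col4a3 was 1.83, 1.55, 1.63, 1.63 and 1.34 in CF1 to CF5. It was 0.0, 0.19, 0.30, -1.41 and -0.77 in aCF1 to aCF5, and -0.40, -1.04, -1.43, -0.71 and -0.88 in EpiSC1 to EpiSC5. All CF arrays lay above all arrays of infarcted hearts, and aCF4 and aCF5 lay within the range of EpiSC while aCF1 to aCF3 lay above it. Col4a3 was 5.61-fold lower in EpiSC than in CF (log2 difference -2.49 ± 0.17, limma with Bonferroni adjustment, adjusted p = 0.000779), which held in all 10 omissions of an array. It was the family's largest difference in the 3 comparisons. With the replicate number as a block, 1 of the calls of Col4a3, Col4a4 and Col15a1 in EpiSC against CF was kept.

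Between aCF and CF the difference of Col4a3 was -1.93 ± 0.30, with a 95% interval from -2.59 to -1.28. It missed the Bonferroni threshold (adjusted p = 1) and passed Benjamini-Hochberg (adjusted p = 0.00135, limma). Without aCF4 and aCF5 it was -1.43 ± 0.12 and passed Bonferroni (adjusted p = 0.0213, limma): a smaller difference with a smaller error. Between EpiSC and aCF it was -0.55 ± 0.33 with all arrays and -1.06 ± 0.21 without those 2, with adjusted p = 1 in both limma fits. The 2 arrays that carried the lowest Col4a3 among aCF also had the lowest heart muscle marker values of that group, as given above, and the lowest endothelial marker values, -0.147 and -0.051 against 0.127 to 0.423. The part of those cells in the result was not tested.

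Col4a4 was 0.90, 0.71, 0.67, 0.80 and 0.88 in CF1 to CF5. It was -0.41, 0.27, 0.28, -0.42 and 0.0 in aCF1 to aCF5, and -0.11, -0.11, -0.41, -0.13 and -0.17 in EpiSC1 to EpiSC5. Again the CF arrays lay above all others, while aCF and EpiSC overlapped. Col4a4 was 1.97-fold lower in EpiSC than in CF (-0.98 ± 0.08, limma with Bonferroni adjustment, adjusted p = 0.00296), a call that held in all 10 omissions and was lost in the fit of all 3 groups (adjusted p = 0.0702) and in the trended and robust fit (adjusted p = 0.164). Between aCF and CF it differed by -0.85 ± 0.15, past Benjamini-Hochberg (adjusted p = 0.00278) and not past Bonferroni (adjusted p = 1). Between EpiSC and aCF the interval ran from -0.47 to 0.21.

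The CF arrays stood further above the others in Col4a3 than in Col4a4. Col4a4 minus Col4a3 on the same array averaged -0.80 ± 0.20 (SD, n = 5) in CF, 0.28 ± 0.58 in aCF and 0.71 ± 0.29 in EpiSC. CF overlapped with neither of the other groups (exact permutation test, adjusted p = 0.0170 for both), with a shift of 1.09 for aCF and 1.51 for EpiSC. Without aCF4 and aCF5 the shift for aCF was 0.69. Between EpiSC and aCF the difference of 0.42 did not pass (exact test, adjusted p = 0.196).

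Col4a5 and Col4a6, the X-linked pair, encode the chains of the third helix, and Col4a5 is also needed for the helix of Col4a3 and Col4a4. They too lie head to head, but their RefSeq starts are 1343 bases apart. Col4a5 was -0.46, 0.06, -0.04, 0.0 and 0.01 in CF1 to CF5. It was -0.37, 0.32, 0.10, 0.04 and 0.21 in aCF1 to aCF5, and -0.25, -0.22, -0.05, 0.07 and -0.22 in EpiSC1 to EpiSC5. The groups overlapped throughout, and CF1, aCF1 and EpiSC1 were the lowest arrays of their groups. No comparison passed in limma, and the 95% intervals ran from -0.47 to 0.09 for EpiSC against aCF, from -0.16 to 0.45 for aCF against CF and from -0.29 to 0.19 for EpiSC against CF.

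Col4a6 was 0.0, 0.10, 0.02, 0.11 and -0.28 in CF1 to CF5. It was -0.37, -0.19, -0.05, -0.30 and -0.05 in aCF1 to aCF5, and 0.12, -0.21, 0.20, 0.06 and 0.06 in EpiSC1 to EpiSC5. The groups overlapped here as well. The largest difference was 0.24 ± 0.10 for EpiSC over aCF (limma, unadjusted p = 0.0311, Benjamini-Hochberg adjusted p = 0.157). The intervals were -0.39 to 0.03 for aCF against CF and -0.16 to 0.27 for EpiSC against CF. Col4a6 minus Col4a5 on the same array was higher in EpiSC than in aCF by 0.43 (exact permutation test, adjusted p = 0.0265), which held in 3 of 10 omissions, without aCF1, EpiSC4 or EpiSC5.

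Col4a5 was also set against Col4a1, the ubiquitous chain. Col4a5 minus Col4a1 averaged 0.79 ± 0.18 (SD, n = 5) in EpiSC, -0.05 ± 0.19 in aCF and -0.24 ± 0.20 in CF. The EpiSC arrays lay above all others. The shift was 0.84 against aCF and 1.03 against CF (exact permutation test, adjusted p = 0.0170 for both). Both held in all omissions of a single array, which could not end calls between groups that do not overlap. The shift against aCF was 0.88 without aCF4 and aCF5. Between aCF and CF the difference of 0.19 did not pass (exact test, adjusted p = 0.196).

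**Figure D4:**
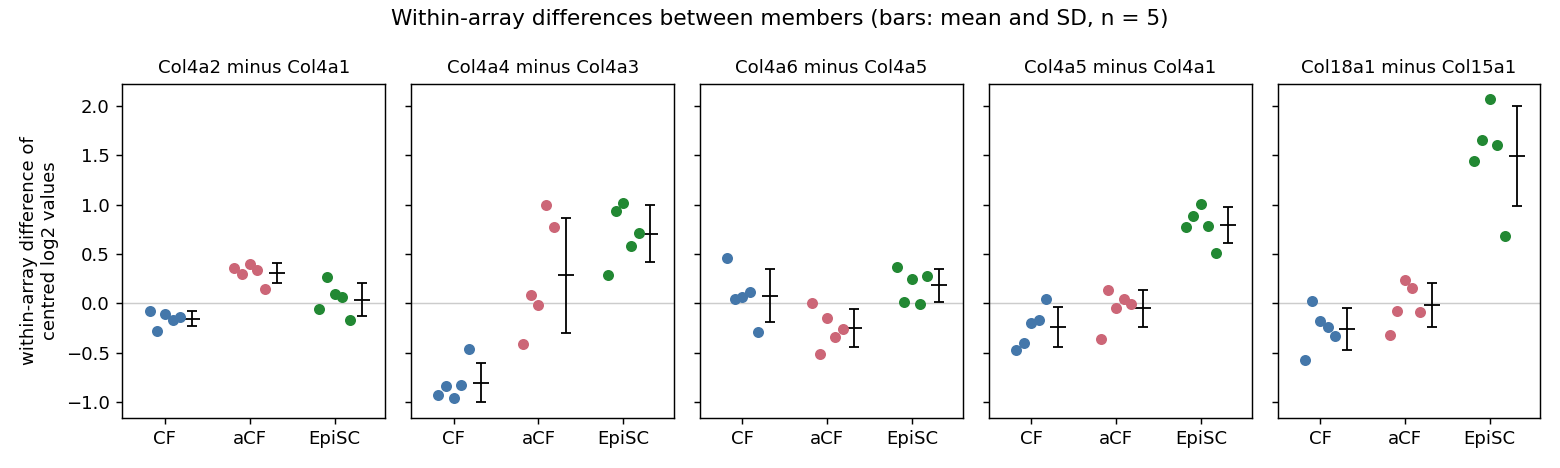
Within-array differences of centred log2 values for 5 pairs of members (y axis) by group (x axis), with 1 point per array and the mean and SD of 5 arrays. The aCF arrays lie above all CF arrays for Col4a2 minus Col4a1, and the EpiSC arrays lie above all others for Col4a5 minus Col4a1 and for Col18a1 minus Col15a1.

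Col15a1 and Col18a1 encode collagens of the same build, and they parted in EpiSC. Col15a1 was 0.43, 0.25, 0.25, 0.27 and 0.14 in CF1 to CF5. It was 0.0, 0.01, 0.10, -0.18 and -0.04 in aCF1 to aCF5, and -1.44, -1.19, -1.67, -1.53 and -1.09 in EpiSC1 to EpiSC5. The 3 groups did not overlap, in the order CF, aCF, EpiSC. Col15a1 was 2.57-fold lower in EpiSC than in aCF (-1.36 ± 0.11, limma with Bonferroni adjustment, adjusted p = 0.00486) and 3.14-fold lower than in CF (-1.65 ± 0.11, adjusted p = 0.000638). Both calls held in all 10 omissions of an array. The first was lost in the trended and robust fit (adjusted p = 1) and without both aCF4 and aCF5 (-1.42, adjusted p = 0.123). The replicate number as a block in the fit ended that call too (adjusted p = 0.316, limma with Bonferroni adjustment). Between aCF and CF it differed by -0.29 ± 0.07, past Benjamini-Hochberg (adjusted p = 0.0170, limma) and not past Bonferroni (adjusted p = 1).

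Col18a1 was -0.14, 0.27, 0.07, 0.03 and -0.19 in CF1 to CF5. It was -0.32, -0.07, 0.34, -0.03 and -0.13 in aCF1 to aCF5, and 0.0, 0.46, 0.40, 0.07 and -0.41 in EpiSC1 to EpiSC5. The groups overlapped, and EpiSC had the widest spread. No comparison passed in limma, with 95% intervals from -0.24 to 0.53 for EpiSC against aCF, from -0.33 to 0.23 for aCF against CF and from -0.26 to 0.45 for EpiSC against CF. A difference as large as that of Col15a1 in EpiSC lies outside these intervals. Col18a1 minus Col15a1 was 1.49 ± 0.51 (SD, n = 5) in EpiSC, -0.02 ± 0.22 in aCF and -0.26 ± 0.22 in CF. The shift was 1.51 against aCF and 1.75 against CF (exact permutation test, adjusted p = 0.0170 for both), while aCF and CF differed by 0.24 (exact test, adjusted p = 0.159). Both shifts held in all omissions of an array, which could not end calls between groups that do not overlap. The shift against aCF was 1.54 without aCF4 and aCF5.

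The 100 bases before each RefSeq start of the multiplexin genes are shown because the within-array difference of this pair shifted most among the 5 pairs between EpiSC and the fibroblasts, with Col15a1 lower and Col18a1 overlapping. They are from GRCm38.p6, 5′ to 3′ on the gene's strand, with matches to the 4 motifs above in capitals. Col15a1 lies at chr4:47207912-47208011 on the plus strand. Col18a1 has 2 starts, before which lie chr10:77166531-77166630 and chr10:77113706-77113805, both on the minus strand.
Col15a1: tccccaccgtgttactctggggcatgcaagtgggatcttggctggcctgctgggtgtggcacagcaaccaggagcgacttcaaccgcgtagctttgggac
Col18a1, upstream start: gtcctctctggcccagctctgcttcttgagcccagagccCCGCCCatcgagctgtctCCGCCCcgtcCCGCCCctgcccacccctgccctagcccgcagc
Col18a1, downstream start: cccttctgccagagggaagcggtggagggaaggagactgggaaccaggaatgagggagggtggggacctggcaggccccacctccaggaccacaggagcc

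The capitals are GGGCGG read on the opposite strand, which occurs 3 times before the upstream Col18a1 start. Over the whole 300-base window of that start CCAAT was matched once as well. The windows of Col15a1 and of the downstream Col18a1 start held none of the 4 motifs. The array does not tell which Col18a1 start was used.

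Fibrillar collagens, which form the fibres of scar, gave a different count over the same arrays. In aCF against CF, 6 of 9 measured fibrillar collagen genes rose and 0 fell, with a median log2 difference of 1.18, beside 0 of 8 members and a median of -0.12 for the family and -0.02 for all rows (limma, Bonferroni). Col11a1, a minor fibrillar chain, rose by 2.54 ± 0.16 (adjusted p = 0.000222) and Col5a2, a chain of fibril-nucleating collagen V, by 1.48 ± 0.08 (adjusted p = 2.87e-05). Without aCF4 and aCF5 the count was 4 of 9. In EpiSC against aCF 0 of 9 passed Bonferroni in limma, with 1 higher and 5 lower by Benjamini-Hochberg, 9 past an unadjusted p of 0.05 and a median of -0.39, beside -0.37 for the family. In EpiSC against CF 3 of 9 rose and 0 fell (median 0.79), whereas the family had 5 of 8 lower and a median of -0.93. The difference between the lists was not tested.

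**Figure D5:**
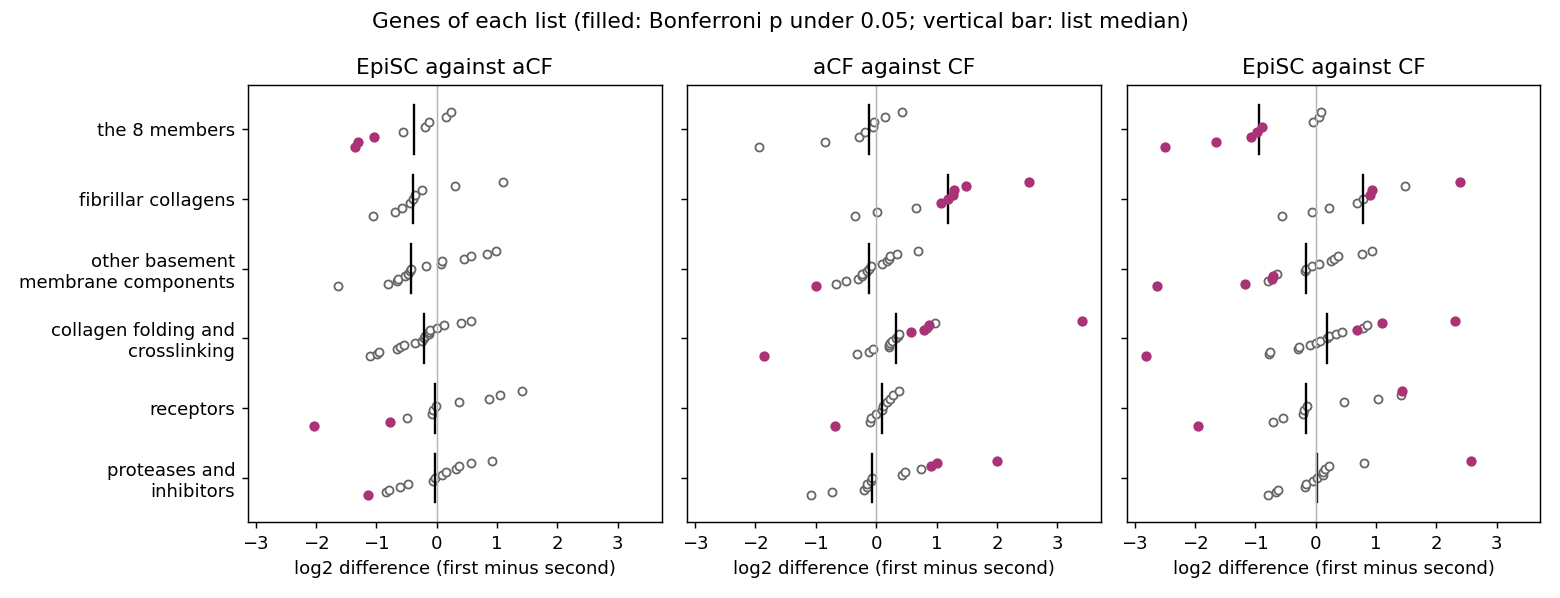
Log2 difference (x axis) of every measured gene of the family and of 5 related lists (y axis) in the 3 comparisons, first group minus second. Filled points passed the Bonferroni threshold in limma and vertical bars are list medians; in aCF against CF 6 of 9 fibrillar collagen genes are filled on the right and 0 of the 8 members are.

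Other basement membrane components, laminins, proteoglycans and their linkers, were measured for 15 of 25 listed genes. In EpiSC against aCF 0 passed Bonferroni in limma (2 higher and 8 lower by Benjamini-Hochberg, 13 by unadjusted p), with a median of -0.43. In aCF against CF 1 fell, Lama2, the laminin chain of muscle basement membranes (-0.99 ± 0.10, adjusted p = 0.0382). In EpiSC against CF 4 were lower and 0 higher, with Lama2 at -2.63 ± 0.18 (adjusted p = 0.000836) and the vascular laminin chain Lama4 at -1.17 ± 0.12 (adjusted p = 0.0322). By Benjamini-Hochberg 7 were lower and 1 higher there, with a list median of -0.16. The higher one was Lama5 (0.77 ± 0.09, Benjamini-Hochberg adjusted p = 0.000124, limma), named after its value was seen.

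Enzymes and chaperones that fold, secrete and crosslink collagen were measured for 17 of 27 genes. In aCF against CF 4 rose and 1 fell (median 0.33), and without aCF4 and aCF5 the count risen was 2. The prolyl hydroxylase subunit P4ha3 rose by 3.41 ± 0.15 (adjusted p = 4.44e-06) and the collagen galactosyltransferase Colgalt2 fell by 1.86 on the log2 scale (SE 0.16, adjusted p = 0.00678, limma with Bonferroni adjustment). In EpiSC against aCF 0 passed Bonferroni in limma (0 higher and 8 lower by Benjamini-Hochberg, 13 by unadjusted p, median -0.21). In EpiSC against CF 3 were higher and 1 lower, P4ha3 by 2.31 ± 0.14 (adjusted p = 0.000174) and Colgalt2 by -2.82 ± 0.29 (adjusted p = 0.0376).

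Integrin chains and other receptors for collagens, laminins and further matrix proteins were measured for 10 of 17 genes. In EpiSC against aCF 2 were lower and 0 higher by Bonferroni, while 3 were lower and 3 higher by Benjamini-Hochberg, with a median of -0.04. The 2 were Itga11, an integrin chain that binds fibrillar collagens (-2.03 ± 0.12, adjusted p = 0.000181), and Itga7, a laminin-binding integrin chain (-0.77 ± 0.08, adjusted p = 0.0270); without aCF4 and aCF5 the count was 1. In aCF against CF the collagen receptor kinase Ddr2 fell (-0.69 ± 0.06, adjusted p = 0.00341), and 0 passed without aCF4 and aCF5. In EpiSC against CF Itga11 was lower (-1.94 ± 0.10, adjusted p = 3.75e-05) and Itgb4, the integrin chain of hemidesmosomes, higher (1.43 ± 0.15, adjusted p = 0.0309, limma with Bonferroni adjustment).

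Proteases and inhibitors that act on basement membrane collagens were measured for 13 of 20 genes. In aCF against CF 3 rose and 0 fell by Bonferroni, while 5 were higher and 3 lower by Benjamini-Hochberg, with a median of -0.07. Among the 3 were Timp1, a metalloproteinase inhibitor, at 1.99 ± 0.13 (adjusted p = 0.000238) and Ctss, a cathepsin, at 1.00 ± 0.08 (adjusted p = 0.00213); without aCF4 and aCF5 the count was 2. In EpiSC against aCF the membrane-type metalloproteinase Mmp16 was lower (-1.13 ± 0.09, adjusted p = 0.00279) and 0 were higher, and without aCF4 and aCF5 0 passed. In EpiSC against CF Timp1 was higher by 2.57 ± 0.13 (adjusted p = 3.16e-05, limma with Bonferroni adjustment), and 0 were lower.

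Markers of other cell types the fractions could hold also differed between the groups. The 10 measured endothelial markers of 14 averaged between -0.735 and -0.568 on the EpiSC arrays, between -0.147 and 0.423 on aCF and between 0.204 and 0.559 on CF, and the receptor phosphatase Ptprb was lower in EpiSC than in aCF (log2 difference -3.09 ± 0.15, limma adjusted p = 1.91e-05, 1 of 10 past the threshold; without aCF4 and aCF5 2 of 10). Ptprb was the extreme of the endothelial list in EpiSC against aCF, where differences ran from -3.09 to 0.45 with a median of -0.345. By Benjamini-Hochberg 0 were higher and 4 lower there, and 1 higher and 7 lower in EpiSC against CF. In aCF against CF 1 was higher, Ptprb itself (1.14 ± 0.19, Benjamini-Hochberg adjusted p = 0.00235, limma), and 2 were lower. The 9 measured mural markers of 13 averaged between -1.18 and -0.589 on EpiSC, between 0.412 and 0.762 on aCF and between -0.759 and 0.0144 on CF. Of these 2 were lower in EpiSC than in aCF, Rgs5 (-3.58 ± 0.21, adjusted p = 0.000162) and Higd1b (-2.10 ± 0.16, adjusted p = 0.00235), 1 without aCF4 and aCF5, and 2 rose in aCF against CF, namely Cnn1 (2.98 ± 0.32, adjusted p = 0.0427) and Tagln (2.36 ± 0.14, adjusted p = 0.000111). The mural list was mixed in aCF against CF, with log2 differences from -0.62 to 2.98 and a median of 0.988. By Benjamini-Hochberg 5 of the 9 were higher there and 0 lower. Heart muscle markers (7 of 10 measured) ranged from -1.17 to -0.683 on EpiSC, from -0.767 to 0.303 on aCF and from 0.09 to 0.547 on CF. Fibroblast markers (6 of 7 measured) ranged from -0.377 to -0.0583 on EpiSC, from 0.0917 to 0.202 on aCF and from -0.418 to -0.265 on CF. Of these 6, 3 rose in aCF against CF, Col1a1, Col1a2 and Postn, the first 2 of which are also fibrillar collagens of the list above. The other 3 had log2 differences below 0, Tcf21 with -0.38 (Benjamini-Hochberg adjusted p = 0.0114, limma), Dcn with -0.11 and Lum with -0.07, named after their values were seen. Macrophage markers (8 of 12) ranged from -0.252 to -0.0188, from 0.138 to 0.438 and from -0.192 to 0.05 in the same order, and only 1 of 6 Schwann cell markers had a value. In limma 0 of 7 heart muscle and 0 of 8 macrophage markers passed Bonferroni in EpiSC against aCF, 2 and 4 were lower by Benjamini-Hochberg, and 4 and 6 passed by unadjusted p. Mesothelial and epicardial markers ranged from 1.33 to 2.04 on EpiSC, where Col4a1, Col4a2 and Col15a1 were lowest, from -0.69 to 0.227 on aCF and from -1.09 to -0.311 on CF. Endothelial values were below all other arrays on EpiSC, while mural values of EpiSC overlapped those of CF. Against CF, 2 mural markers were higher in EpiSC, among them Cnn1 (3.06 ± 0.30, adjusted p = 0.0271). In the same comparison 1 was lower, Vtn (-2.25 ± 0.22, adjusted p = 0.0245, both limma with Bonferroni adjustment). By Benjamini-Hochberg 2 of the 9 were higher and 6 lower, with a list median of -1.14. Mural values were highest in aCF, as was Col4a2, while the difference of Col4a1 between aCF and CF was -0.04. Endothelial values of CF and aCF overlapped, as did those of heart muscle, and both had their highest median in CF, where Col4a3 and Col4a4 were highest. The part of these cells in the family's differences was not tested.

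Likeness to each member was described by the Pearson correlation of deviations from group means over the 15 arrays, among 13512 other named genes. For Col4a1 the 5 most alike were Samd4b (0.84), Pramel29 (0.84), Defb1 (0.83), Slc36a4 (0.82) and Slc9a4 (0.81), and Col4a2 came 85th (0.70). For Col4a2 they were Shq1 (0.91), Lrrc8a (0.87), Gm5643 (0.86), Csf1 (0.85) and Hsp90b1 (0.84), and Col4a1 came 77th. For Col15a1 they were Hif3a (0.93), Camkk2 (0.88), Clip2 (0.83), Ndufs1 (0.83) and Tnfsf18 (0.82), and for Col18a1 Zfp612 (0.88), Spsb1 (0.84), Dmtf1 (0.84), Taar1 (0.82) and Was (0.82). Col15a1 and Col18a1 had a correlation of -0.23 with each other, and Col15a1 one of 0.16 with Col4a1 and 0.17 with Col4a2. Arrays that share a preparation also share its composition, and with 15 arrays these values are descriptions. The 5 named for each member are the highest of 13512 values, and how high unrelated genes reach was not examined.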

How the data were processed

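Per the series design text, the authors quantile-normalized probe signals and summarized probe sets in GeneSpring GX 12.5 with an exon-level RMA method. They then centred each probe set on its median over the samples. The deposited values are log2 expression. No source names the log base, and base 2 is assumed since RMA gives it (values -4.77 to 5.52). The file's genome build: not given in the sources used here. The authors' filter on raw signal could not be applied to centred values.

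The values of an identifier were read 6900 rows further down the table, or 6903 rows for chromosomes 10 and 11, on the evidence of the values. The additional 3 rows equal the number of identifiers starting TC1_, which another sorting order places before TC10. For 16 list genes on chromosomes 10 and 11, the mean correlation with their list was 0.247 there and at most 0.123 at 20 other shifts. This gave 15303 of 22206 rows an identifier. The first 6900 rows stay unnamed but were tested. Symbols came from the platform annotation through RefSeq gene IDs.

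Each comparison was fitted with limma 3.58.1 (lmFit and eBayes, R 4.3.3) on all 22206 rows of the 2 groups, 2-sided, with Bonferroni adjustment and a threshold of 0.05. Errors beside log2 differences are moderated SEs. Pairs of members were compared by exact permutation (scipy 1.17.1), with Benjamini-Hochberg adjustment over 15 tests. Scripts were tested on simulated data. The design text calls arrays of a group biological replicates, and their number limits the precision. No 2 arrays shared more than 2.45% of values. The members and lists were chosen with earlier results of these data known. All members are named, and from other lists at most the 2 largest differences past the threshold in a comparison. Further list genes were named after their values were seen. Alternatives were Benjamini-Hochberg, all 3 groups in one fit, quantile normalization, a trended and robust fit, the paired rows only, a replicate block and omitted arrays. Omitting aCF4 and aCF5 from pairs of members and from list counts was added after seeing the data.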

Additional observations from a re-analysis of the deposited data

Results flagged for a closer look

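In 3 of 24 sets of 5 arrays, 1 array lay far from the other 4 by Dixon's test. Col4a4 was -0.41 in EpiSC3, while the other EpiSC arrays lay between -0.17 and -0.11. Col4a5 was -0.46 in CF1, while the other CF arrays lay between -0.04 and 0.06. Col4a6 was -0.28 in CF5, while the other CF arrays lay between 0.0 and 0.11. Chance alone flags about 1 in 20 such sets. The flagged arrays differ from gene to gene.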

How the results depend on the processing

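The number of members past the threshold in EpiSC against aCF was 3, and it was 1 in the trended and robust fit, 1 without aCF4 and aCF5, and 2 to 3 when single arrays were left out. In aCF against CF it was 0, and it was 4 with Benjamini-Hochberg adjustment and 1, Col4a3, without aCF4 and aCF5. In EpiSC against CF it was 5, and it was 3 after quantile normalization, 2 in the trended and robust fit and 3 to 4 when single arrays were left out. With the replicate number as a block the counts were 0, 0 and 1. Over all rows the counts past the threshold were 148, 340 and 647 in the order of the comparisons above. They were 97, 212 and 498 in the trended and robust fit, 369, 403 and 1060 with all groups in one fit, and 41, 94 and 166 with the replicate block. Without aCF4 and aCF5 they were 50 and 144, and leaving out single arrays gave 73 to 143, 197 to 272 and 369 to 557. Same-numbered EpiSC and aCF arrays correlated in their deviations at 0.019 to 0.154, with 1 of 5 above 0.1, and other-numbered ones at -0.113 to 0.0808. Of the 5 EpiSC arrays 4 were best with their own number among aCF, and 1 of 5 among CF. Whether EpiSC and aCF arrays of the same number belong together was not settled. The main fits and the exact tests do not pair them, and with the replicate block 0 members passed in EpiSC against aCF. Over 400 alternative fits of single members 350 kept their status, which includes members not called in either fit, 45 lost a call and 5 gained one. By definition the 45 losses can fall only on the members called in the main fits, 3, 0 and 5 of 8. No call changed direction. Of 175 alternatives for member pairs 152 kept their status, again with pairs not called in either fit, 20 lost a call and 3 gained one. The 152 include single omissions from groups that do not overlap, which could not change the call. Without aCF4 and aCF5 the smallest adjusted p of a pair difference against aCF was 0.0595 (exact test, 3 against 5 arrays). Centring removes the signal over background, so a low signal behind the values of any member, Col4a3 and Col4a4 included, could not be examined.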
